A study of Mus musculus with 60 samples.

Results

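The genes described are 10 NF-kB genes measured in liver macrophage preparations of mice: the inhibitor genes Nfkbia, Nfkbiz and Bcl3, the subunit genes Nfkb1, Nfkb2, Rel and Relb, the ubiquitin-editing pair Tnfaip3 and Tnip1, and the adaptor gene Traf1. They were taken by symbol, and all 10 were found among the 24411 genes of the count table. The labels describe 15 male C57BL/6J mice aged 8 weeks, 5 in each of 3 groups. Trem1-deficient mice given carbon tetrachloride (CCl4), wild-type (WT) mice given CCl4 and WT mice given corn oil were killed 12 h after 1 dose. CCl4 is a solvent that injures hepatocytes, given at 2 µl per g body weight, diluted 1:4 in the corn oil that all groups received. The product of Trem1 is a receptor that amplifies inflammatory signals in myeloid cells, and the labels give neither its deleted part nor a Cre line. Kupffer cells, which are liver-resident macrophages, were enriched per the labels' protocols by removing cells that bound CD11b beads and then collecting F4/80-positive cells. There was no group of Trem1-deficient mice on oil, and the effect of CCl4 within that genotype cannot be computed.

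NF-kB is a dimer of Rel-family proteins that inhibitor proteins hold in the cytoplasm until a signal from a receptor leads to their degradation. The dimers then enter the nucleus and switch on inflammatory genes, and among those genes are the inhibitors themselves, which ends the response. In Kupffer cells the pathway is known for the response to bacterial products arriving from the gut and to molecules released by dying hepatocytes. Transcript levels of these genes are thus often read as a trace of recent NF-kB activity, although the subunits are controlled mainly at the protein level.

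Promoter windows of RefSeq (GRCm38.p6), which run from 250 bases before to 50 after a start site, were found for 7 of the 10 genes: Nfkbia, Nfkb2, Rel, Tnfaip3, Tnip1, Bcl3 and Traf1. They were searched on both strands for the kB consensus, the 10-letter sequence that NF-kB dimers bind. It was present in 6 of these 7 genes (85.7%), against 6.56% of 6979 tested genes with a window and 4.51% of all 32851 windows. It was also present in 11 of 27 listed NF-kB target genes with a window (40.7%) and in 9 of 36 other genes of the pathway (25.0%). Traf1 had no match in its window, and neither did the second of 2 windows of Tnfaip3. The match of Bcl3 lay after its start site, from base 2 to base 11 counted from 0 at the start. The last 130 bases before the start site of the other 5 genes are printed 5′ to 3′ on the gene's strand, since they show how close to the start the matches lie; capitals mark the kB consensus.
Nfkbia (chr12:55492648-55492777, minus strand): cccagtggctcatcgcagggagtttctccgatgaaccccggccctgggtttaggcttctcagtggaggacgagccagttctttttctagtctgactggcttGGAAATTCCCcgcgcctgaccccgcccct
Nfkb2 (chr19:46304607-46304736, plus strand): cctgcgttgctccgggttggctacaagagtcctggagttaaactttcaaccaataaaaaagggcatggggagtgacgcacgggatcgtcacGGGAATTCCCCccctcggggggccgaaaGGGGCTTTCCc
Rel (chr11:23770970-23771099, minus strand): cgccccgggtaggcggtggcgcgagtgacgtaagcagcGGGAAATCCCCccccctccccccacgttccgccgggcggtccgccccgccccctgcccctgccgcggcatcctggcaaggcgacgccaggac
Tnfaip3 (chr10:19015411-19015540, minus strand): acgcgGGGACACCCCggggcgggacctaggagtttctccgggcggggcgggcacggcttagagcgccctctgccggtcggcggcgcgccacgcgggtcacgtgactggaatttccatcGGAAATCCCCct
Tnip1 (chr11:54962941-54963070, minus strand): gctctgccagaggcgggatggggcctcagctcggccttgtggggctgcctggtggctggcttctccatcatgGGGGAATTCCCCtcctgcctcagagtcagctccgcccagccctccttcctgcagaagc
The match of Nfkbia began 29 bases before the start. In Tnip1, 3 overlapping matches formed 1 stretch of 12 bases, and in Rel 2 overlapping matches formed 1 of 11 bases. Nfkb2 and Tnfaip3 had 2 separate stretches each in the printed part. A match is a description of the letters and not evidence of binding in these cells.

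Counts assigned to genes came to 1250547 to 2593004 in Trem1-deficient libraries, 812320 to 1912946 in WT CCl4 libraries and 892498 to 1922569 in WT oil libraries. Levels are counts per 1000000 after TMM scaling (CPM); a library with no count of a gene could still hold 0.988 to 4.09 CPM of it (3 counts). Trem1 had 1.15 to 10.7 CPM in Trem1-deficient, 109 to 566 CPM in WT CCl4 and 32.4 to 107 CPM in WT oil libraries; a 3' tag checks the labels only if the deleted part holds the 3' end. WT CCl4 mouse 5 stood apart with the fewest counts (812320) and the fewest genes detected (7926). By the index numbers in the labels there are 2 series of libraries: 7 with Trem1-deficient mice 1 and 2 and all oil mice, and 8 with Trem1-deficient mice 3 to 5 and all WT CCl4 mice. Xist and Y-linked transcripts divide them in the same way, against the labels, which call all mice male. In WT CCl4 against WT oil, each series holds 1 group, so treatment, series and sex-linked transcripts cannot be told apart.

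The cell makeup of the preparations also differed between groups. The summed markers of Kupffer cells, a list of 20 genes, took 64334 to 73946 CPM of the library total in Trem1-deficient, 7402 to 23102 CPM in WT CCl4 and 34892 to 84017 CPM in WT oil libraries. Of these, 12 of 20 were higher in Trem1-deficient than in WT mice after CCl4 and 14 of 20 lower in WT CCl4 than in WT oil mice by edgeR. The lectin gene Clec4f, which marks Kupffer cells, was detected in every library (120 CPM or more). Monocyte markers summed to 1231 to 2468 CPM in Trem1-deficient, 2820 to 6673 CPM in WT CCl4 and 724 to 1634 CPM in WT oil libraries. Hepatocyte markers summed to 2289 to 24898 CPM in Trem1-deficient, 15050 to 49142 CPM in WT CCl4 and 3916 to 18096 CPM in WT oil libraries. In bulk samples like these, fewer cells of a type and less RNA per cell cannot be told apart. The part of cell makeup in the levels of the NF-kB genes was not tested.

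None of the 10 NF-kB genes passed the test in any comparison. Intervals were narrowest for Nfkbia and next for Nfkbiz (0.592- to 1.73-fold for Trem1-deficient against WT after CCl4). They were wider for the other tested genes. Low counts kept Traf1 out of the fit, so 9 were tested by edgeR's quasi-likelihood test across 9001 genes with Benjamini-Hochberg adjustment. In Trem1-deficient against WT mice after CCl4, 0 of 9 were called, against 185 of 9001 genes (2.06%). The count was 0 of 9 in WT CCl4 against WT oil, against 462 of 9001 genes (5.13%), and 0 of 9 in Trem1-deficient CCl4 against WT oil, against 21 of 9001 (0.233%). At an unadjusted p under 0.05 the count was also 0 of 9 in each comparison, beside 15.2%, 19.0% and 4.66% of all genes in the order above. DESeq2 called 0 of the 9 as well, where it called 616, 1010 and 74 genes over all. Limma also called 0 of them, where it called 431, 722 and 217 genes over all. At these background shares, a count of 0 among 9 genes does not set the NF-kB genes apart from other genes.

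Groups overlapped in all 10 genes in every comparison. The share of tested genes whose groups did not overlap was 5.54% for Trem1-deficient against WT after CCl4, 6.58% for WT CCl4 against WT oil and 2.90% for Trem1-deficient CCl4 against WT oil. The median log2 fold change of the 9 tested genes was 0.24, -0.31 and -0.23 in these 3 comparisons, beside -0.026, 0.056 and 0.018 over all genes. These comparisons share groups, and so their values are not independent. In each of the 3, 7 of the 9 genes had a fold change smaller than its standard error.

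**Figure D1:**
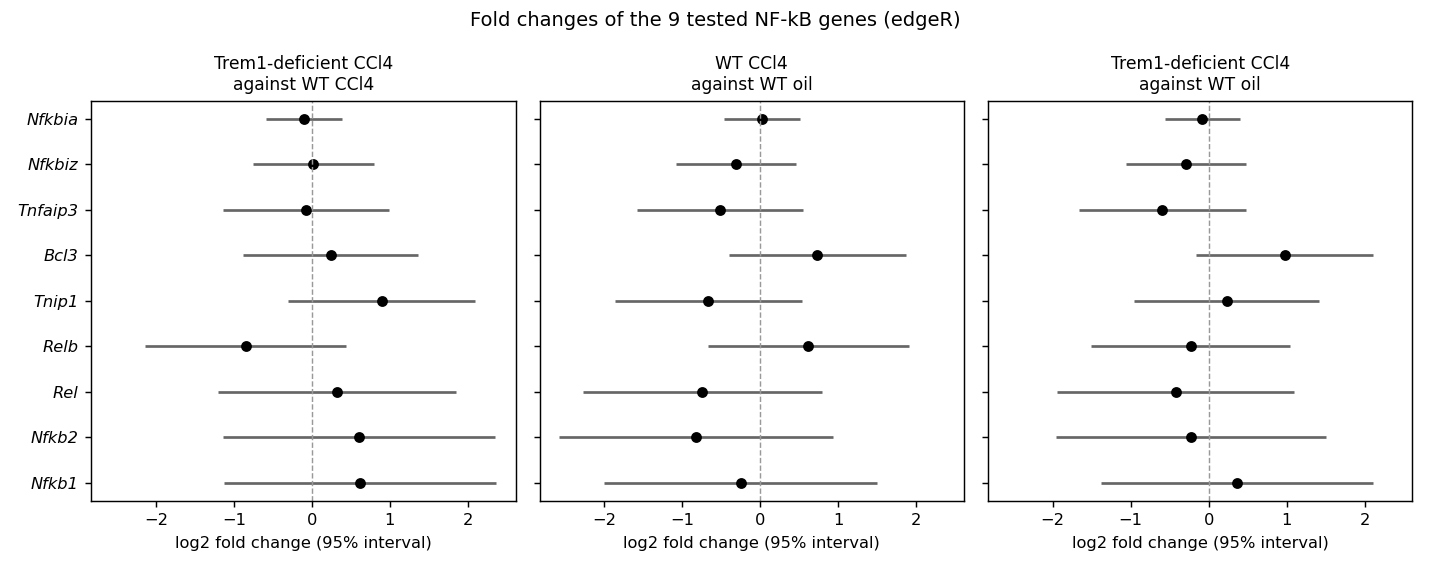
Log2 fold changes (horizontal axis) of the 9 tested NF-kB genes in 3 comparisons, with points for the estimate and lines for its 95% interval. All 27 intervals include 0, and those of Nfkbia are the shortest, from -0.59 to 0.38 in Trem1-deficient against WT mice after CCl4.

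Nfkbia and Nfkbiz stood above the other 8 genes. Tags come from transcript ends, so levels of different genes were compared without correction for length. Differences between genes in how their ends are captured and counted were not tested. Nfkbia averaged 3763 ± 931 CPM over the 15 mice (SD), with only 12 of the tested genes above it, and made up 83.4% of the summed level of the 10 genes. Nfkbiz came next at 305 ± 131 CPM, below Nfkbia and above Tnfaip3 in 15 of 15 mice. Tnfaip3 (85.9 ± 39.5 CPM), Bcl3 (85.0 ± 43.9 CPM), Tnip1 (71.0 ± 40.3 CPM), Relb (69.5 ± 59.5 CPM) and Rel (62.2 ± 46.6 CPM) each exceeded the next gene by less than their SD. Within mice, they were above the next gene in 8, 7, 11, 8 and 13 of 15, so Rel stood above Nfkb2 in most mice. Nfkb2 (30.0 ± 17.1 CPM) and Nfkb1 (27.3 ± 15.4 CPM) were level with each other, Nfkb2 being the higher in 7 of 15 mice. Traf1 was lowest at 11.2 ± 18.7 CPM, below Nfkb1 in 12 of 15 mice, but in WT CCl4 mice alone its mean of 26.1 CPM was above those of Nfkb1 (21.9 CPM) and Nfkb2 (20.9 CPM).

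**Figure D2:**
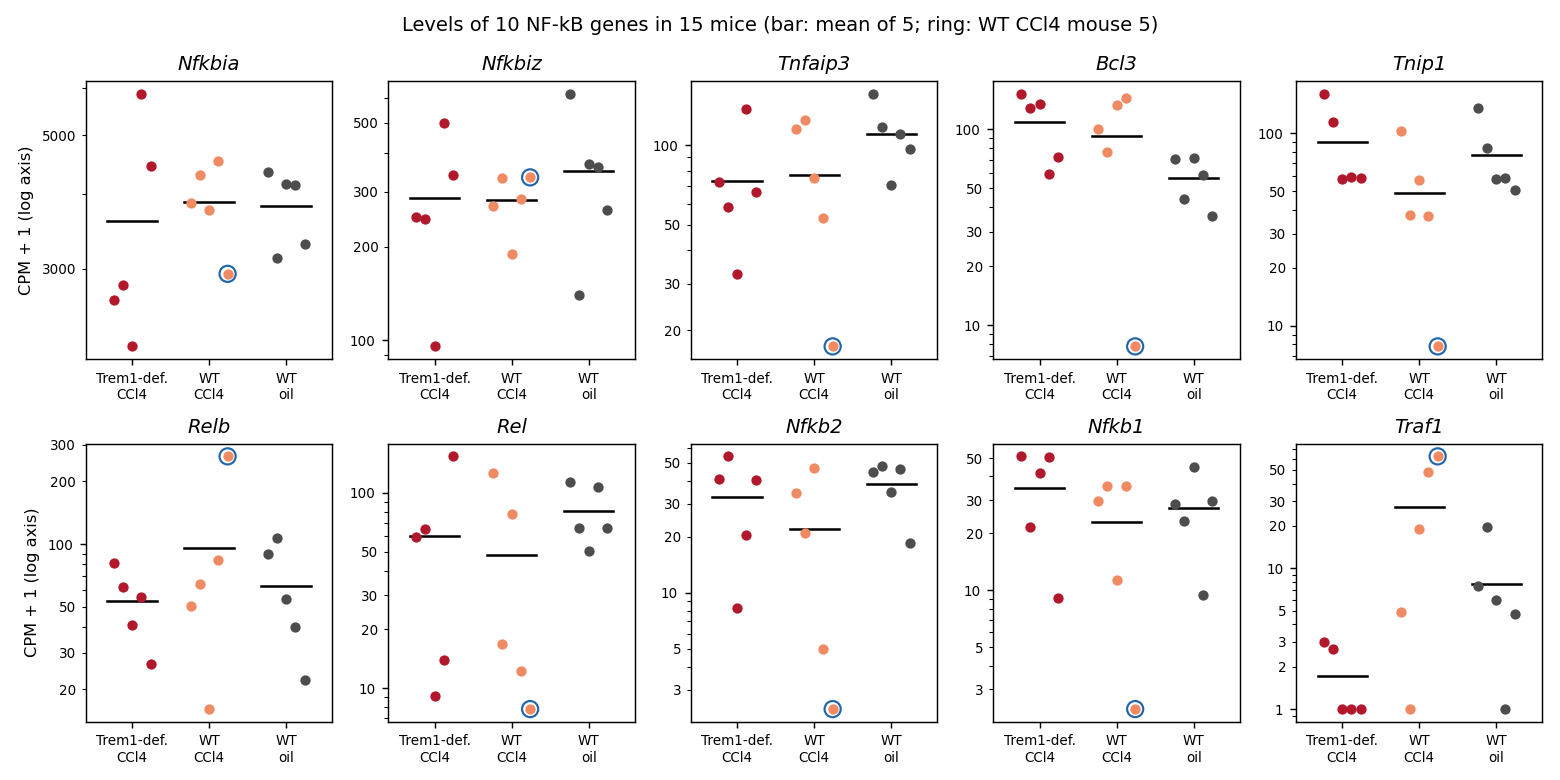
CPM plus 1 (vertical log axes) of the 10 NF-kB genes in Trem1-deficient CCl4, WT CCl4 and WT oil mice; points are mice, bars the mean of 5, and the ring marks WT CCl4 mouse 5. The groups overlap in every panel, and the ringed mouse is the lowest of all 15 in 6 genes and the highest in Relb and Traf1.

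Nfkbia (chromosome 12, 55489410 to 55492647, minus strand, GRCm38 with GENCODE M21) encodes IkBa, the inhibitor that NF-kB induces fastest. Its level was 2663, 2822, 2229, 5863 and 4441 CPM in Trem1-deficient mice 1 to 5, 3852, 4302, 3758, 4530.2 and 2942 CPM in WT CCl4 mice 1 to 5, and 4348, 3121, 4143, 4130.1 and 3303 CPM in WT oil mice 1 to 5. The Trem1-deficient mice held both the lowest and the highest of the 15 values, and the oil mice lay inside the range of the other groups. The log2 fold change was -0.11 ± 0.24 (SE) for Trem1-deficient against WT after CCl4 (95% interval of the fold 0.664 to 1.30, edgeR adjusted p = 0.889). It was 0.025 ± 0.24 for WT CCl4 against WT oil, with an interval of the fold from 0.727 to 1.42 (edgeR adjusted p = 0.970). A 2-fold change in either direction thus lay outside both intervals, which come from a fit without the index series. With the series as a term, the log2 fold change for WT CCl4 against WT oil was -0.58 (edgeR adjusted p = 0.971). That lies below the lower end of its interval, -0.46 on the log2 scale. The coefficient of variation of Nfkbia between mice was 42.1% in the Trem1-deficient, 15.8% in the WT CCl4 and 14.6% in the WT oil group. Its fitted biological coefficient of variation over the groups was 0.385, lower than in all but 0.755% of tested genes. Among the 104 genes that averaged 1000 CPM or more the median was 0.415 and Nfkbia stood at the 28.8th percentile.

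Within the index series shared with the WT CCl4 group, Trem1-deficient mice 3 to 5 gave 2229 to 5863 CPM of Nfkbia, and the log2 fold change against WT CCl4 was 0.12 (edgeR adjusted p = 0.996). Trem1-deficient mice 1 and 2, of the other series, had 2663 and 2822 CPM.

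Nfkbiz (chromosome 16, 55811375 to 55838899, minus strand) encodes IkBz, a nuclear member of the inhibitor family that is needed for a subset of secondary response genes. Its level was 248, 245, 94.7, 498 and 339 CPM in the Trem1-deficient mice, 269, 332, 189, 284 and 333 CPM in the WT CCl4 mice, and 618, 139, 367, 359 and 262 CPM in the WT oil mice. All 5 WT CCl4 values lay below the mean of the oil group (349 CPM), which 2 oil mice also did. The log2 fold changes were 0.017 ± 0.38 for Trem1-deficient against WT after CCl4 and -0.31 ± 0.38 for WT CCl4 against WT oil (edgeR adjusted p = 0.990 and 0.726). For Trem1-deficient CCl4 against WT oil it was -0.29 ± 0.38. The ratio of Nfkbia to Nfkbiz ran from 7.03 to 23.5 across the 15 mice.

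Bcl3 (chromosome 7, 19808462 to 19822770, minus strand) encodes a nuclear inhibitor-like protein that acts on p50 and p52 dimers and can activate or repress. The Trem1-deficient mice had 151, 128, 134, 57.9 and 71.0 CPM, the WT CCl4 mice 99.6, 75.3, 132, 144 and 6.82 CPM, and the WT oil mice 69.4, 43.2, 70.4, 57.7 and 35.3 CPM. All 5 Trem1-deficient mice lay above the oil mean of 55.2 CPM, although mouse 4 (57.9 CPM) was below 2 of the oil mice, and 4 of 5 WT CCl4 mice lay above the highest oil mouse. Against WT oil the log2 fold change was 0.97 ± 0.56 in Trem1-deficient CCl4 mice (95% interval of the fold 0.893 to 4.32, edgeR adjusted p = 1.00) and 0.73 ± 0.56 in WT CCl4 mice (edgeR adjusted p = 0.527). These were the smallest p-values among the 9 genes in both comparisons with oil. The value for Trem1-deficient CCl4 against WT oil was 1.36 within 1 index series (edgeR adjusted p = 0.444), where it rests on Trem1-deficient mice 1 and 2. Without WT CCl4 mouse 5, the value for WT CCl4 against WT oil was 1.01 (edgeR adjusted p = 0.176). Between Trem1-deficient and WT mice after CCl4 it was 0.24 ± 0.55, and -0.050 within 1 index series.

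Of the subunit genes, Nfkb1 (chromosome 3, 135584655 to 135691547, minus strand), which encodes p105 and its product p50, had 50.05, 20.7, 40.7, 49.9 and 8.08 CPM in Trem1-deficient, 28.8, 34.7, 10.3, 34.4 and 1.36 CPM in WT CCl4, and 27.8, 22.2, 43.6, 8.51 and 28.7 CPM in WT oil mice. High and low mice occurred in every group, and WT CCl4 mouse 5 was the lowest. Its interval for Trem1-deficient against WT after CCl4 ran from 0.456- to 5.15-fold (log2 fold change 0.62 ± 0.86, edgeR adjusted p = 0.802). For WT CCl4 against WT oil the log2 fold change was -0.25 ± 0.86. A 4-fold higher level in Trem1-deficient mice therefore stayed inside the interval, at 1 to 152 counts per library.

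Nfkb2 (chromosome 19, 46304320 to 46312385, plus strand), which encodes p100 and its product p52 of the alternative pathway, had 39.8, 53.1, 7.28, 19.3 and 39.3 CPM in Trem1-deficient, 33.4, 19.8, 46.1, 3.95 and 1.36 CPM in WT CCl4, and 43.5, 46.9, 33.8, 45.4 and 17.4 CPM in WT oil mice. WT CCl4 mice 4 and 5 were the 2 lowest of all, and 4 of 5 WT CCl4 mice lay below the oil mean of 37.4 CPM. The log2 fold changes were 0.60 ± 0.85 for Trem1-deficient against WT after CCl4 and -0.83 ± 0.86 for WT CCl4 against WT oil (edgeR adjusted p = 0.810 and 0.671). The last 299 bases of Nfkb2 overlap the end of Psd, a gene on the opposite strand. Psd had 61 to 335 counts in Trem1-deficient, 20 to 224 in WT CCl4 and 1 to 120 in WT oil libraries, where Nfkb2 had 17 to 159, 1 to 51 and 37 to 48. No source used here states whether counting used strand; without strand, reads of this pair cannot be told apart and the values of Nfkb2 are uncertain.

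Rel (chromosome 11, 23736847 to 23770970, minus strand) encodes c-Rel, a subunit known from lymphocytes and from interleukin-12 production by macrophages. It had 58.6, 64.8, 8.14, 12.9 and 153 CPM in Trem1-deficient, 126, 15.9, 77.1, 11.3 and 6.82 CPM in WT CCl4, and 113, 65.4, 49.3, 107 and 64.98 CPM in WT oil mice. The oil mice kept within a 2.29-fold range, whereas the mice of both CCl4 groups spread over 18.8-fold (Trem1-deficient) and 18.5-fold (WT). This difference in spread was not tested. The log2 fold change was 0.32 ± 0.75 for Trem1-deficient against WT after CCl4, -0.75 ± 0.75 for WT CCl4 against WT oil and -0.42 ± 0.74 for Trem1-deficient CCl4 against WT oil (edgeR adjusted p = 0.893, 0.661 and 1.00).

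Relb (chromosome 7, 19606217 to 19629438, minus strand) encodes the partner of p52 in the alternative pathway. It had 80.0, 61.1, 39.8, 54.7 and 25.4 CPM in Trem1-deficient, 49.1, 63.4, 15.0, 82.9 and 263 CPM in WT CCl4, and 88.9, 106, 53.5, 38.8 and 21.2 CPM in WT oil mice. WT CCl4 mouse 5 was far above all others, and the other 14 mice of the 3 groups lay between 15.0 and 106 CPM. With that mouse the log2 fold change was -0.85 ± 0.63 for Trem1-deficient against WT after CCl4 and 0.62 ± 0.63 for WT CCl4 against WT oil (edgeR adjusted p = 0.568 and 0.665). Without it the values were 0.020 and -0.25 (edgeR adjusted p = 0.993 and 0.876), so 1 library decided both directions. Rela, the gene of the subunit that dimers most often hold and not one of the 10, averaged 256 CPM in Trem1-deficient, 233 CPM in WT CCl4 and 221 CPM in WT oil mice (named after its values were seen; log2 fold change 0.14 ± 0.34 for Trem1-deficient against WT after CCl4).

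Tnfaip3 (chromosome 10, 19000910 to 19015657, minus strand) encodes A20, an enzyme that edits ubiquitin chains and so shuts off signalling from receptors to NF-kB. It had 71.4, 57.4, 31.7, 136 and 65.2 CPM in Trem1-deficient, 114, 124, 74.3, 51.9 and 16.4 CPM in WT CCl4, and 156, 116, 69.7, 109 and 96.1 CPM in WT oil mice. Below the oil mean of 109 CPM lay 4 Trem1-deficient mice, 3 WT CCl4 mice and 3 of the oil mice themselves. The log2 fold change was -0.079 ± 0.52 for Trem1-deficient against WT after CCl4, -0.52 ± 0.52 for WT CCl4 against WT oil and -0.60 ± 0.52 for Trem1-deficient CCl4 against WT oil (edgeR adjusted p = 0.967, 0.664 and 1.00).

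Tnip1 (chromosome 11, 54910785 to 54962917, minus strand) encodes ABIN1, which binds A20 and guides it to its targets. It had 159, 113, 57.0, 57.9 and 57.7 CPM in Trem1-deficient, 102, 36.7, 56.4, 36.1 and 6.82 CPM in WT CCl4, and 133, 82.7, 57.0, 57.7 and 49.9 CPM in WT oil mice. All 5 Trem1-deficient mice lay above the WT CCl4 mean of 47.6 CPM, and mice 1 and 2 also lay above the highest WT CCl4 mouse. The log2 fold change was 0.90 ± 0.59 for Trem1-deficient against WT after CCl4 (95% interval of the fold 0.811 to 4.27), the smallest p of the 9 genes in that comparison (edgeR adjusted p = 0.495). The 2 highest Trem1-deficient mice were those of the oil mice's index series, and within 1 series the value was 0.28 (edgeR adjusted p = 0.996). For WT CCl4 against WT oil it was -0.67 ± 0.59.

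Traf1 (chromosome 2, 34941750 to 34961772, minus strand) encodes an adaptor of TNF receptor signalling that NF-kB induces. It had 6, 5, 0, 0 and 0 counts in Trem1-deficient mice, 6, 0, 19, 84 and 45 counts in WT CCl4 mice, and 7, 15, 7, 0 and 8 counts in WT oil mice. That was 1.98, 1.67, 0, 0 and 0 CPM in Trem1-deficient, 3.93, 0, 17.9, 47.4 and 61.4 CPM in WT CCl4, and 6.48, 18.5, 4.93, 0 and 3.77 CPM in WT oil mice. The 2 highest values were those of WT CCl4 mice 4 and 5, and oil mouse 2 was just above WT CCl4 mouse 3. Trem1-deficient mice overlapped with WT CCl4 mice only through WT CCl4 mouse 2, at 0. On the log2(CPM + 1) scale the difference was -3.02 for Trem1-deficient against WT after CCl4, with a two-sided exact permutation p of 0.0556, where 0.00794 is the smallest that 252 splits allow. The difference was 1.22 for WT CCl4 against WT oil (exact permutation p = 0.365) and -1.80 for Trem1-deficient CCl4 against WT oil (exact permutation p = 0.0714). In edgeR without the filter on low counts the log2 fold change for Trem1-deficient against WT after CCl4 was -4.93 (edgeR adjusted p = 0.0557). With the filter, Traf1 entered the fit without WT CCl4 mouse 5, where the value was -4.30 (edgeR adjusted p = 0.167). Over the fits with 1 mouse left out that kept Traf1, the edgeR adjusted p ran from 0.0520 to 0.206. Within 1 index series the value was -8.21 (edgeR adjusted p = 0.175), where the 3 Trem1-deficient mice had 0 counts.

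Other genes of the pathway, a list of 40 made up mostly of receptor adaptors, kinases, ubiquitin enzymes and inhibitors, gave no call either. Of the 39 tested, 0 passed in any of the 3 comparisons by edgeR, and the list's median log2 fold change was -0.045 for Trem1-deficient against WT after CCl4, -0.042 for WT CCl4 against WT oil and -0.10 for Trem1-deficient CCl4 against WT oil. Over all genes, edgeR called 2.06%, 5.13% and 0.233% in these comparisons. At an unadjusted p under 0.05 there were 3, 3 and 1 of 39, beside 15.2%, 19.0% and 4.66% of all genes. DESeq2 called 3, 3 and 0 of the 39, where it called 616, 1010 and 74 genes over all. Limma called 0, 0 and 1 of them, where it called 431, 722 and 217 genes over all. Otulin, a deubiquitinase that removes linear ubiquitin chains, had 51.2 CPM in Trem1-deficient against 171 CPM in WT mice after CCl4 (-1.73 ± 0.54, edgeR adjusted p = 0.0882) and 59.96 CPM in oil mice. Its value for WT CCl4 against WT oil was 1.51 ± 0.54 (edgeR adjusted p = 0.103). By DESeq2 Otulin passed in both (adjusted p = 0.0131 and 0.0344), and within 1 index series it was -1.51 (edgeR adjusted p = 0.509). Without WT CCl4 mouse 5, which had 324 CPM of Otulin, the 2 values were -1.35 and 1.12 (edgeR adjusted p = 0.182 and 0.235). Chuk, which encodes the kinase IKKa, averaged 18.0 CPM in Trem1-deficient and 85.5 CPM in WT mice after CCl4 (-2.24 ± 0.77, edgeR adjusted p = 0.130; DESeq2 adjusted p = 0.0133). WT CCl4 mouse 5 had 229 CPM of it, and without that mouse the value was -1.44 (edgeR adjusted p = 0.384). Ikbke, which encodes a kinase related to TBK1, averaged 62.0 CPM in Trem1-deficient and 61.0 CPM in WT CCl4 mice, and 14.5 CPM in WT oil mice (2.05 ± 0.74 for WT CCl4 against WT oil, edgeR adjusted p = 0.105; DESeq2 adjusted p = 0.0148). Without WT CCl4 mouse 5 that value was 1.65 (edgeR adjusted p = 0.185). For Trem1-deficient CCl4 against WT oil Ikbke was at 2.07, called by limma (adjusted p = 0.0430) and not by edgeR. Nfkbid, of a nuclear inhibitor, averaged 28.1 CPM in Trem1-deficient CCl4 and 60.5 CPM in WT oil mice (-1.11 ± 0.67, edgeR adjusted p = 1.00).

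Target genes of NF-kB, a list of 34 with 29 tested, gave calls in both directions, and the number of calls turned on single mice. It ranged from 1 to 5 with 1 mouse left out in Trem1-deficient against WT mice after CCl4 (5 without WT CCl4 mouse 1), and from 2 (without WT CCl4 mouse 2) to 7 (without WT CCl4 mouse 1) in WT CCl4 against WT oil. In Trem1-deficient against WT mice after CCl4, 1 of the 29 was lower and 0 higher by edgeR, against 13 at an unadjusted p under 0.05. Over all genes tested, 2.06% were called in that comparison and 15.2% had such a p, a smaller share than the 13 of 29. The list was chosen with earlier results of these data known, so this difference in shares carries no test. The 1 called target was Ier3, an immediate-early gene that affects survival. Ier3 had 488, 474, 515, 449.7 and 596 CPM in Trem1-deficient mice, 787, 1214, 1276, 1662 and 1429 CPM in WT CCl4 mice, and 757, 211, 562, 653 and 435 CPM in WT oil mice. All 5 WT CCl4 mice lay above the other 10 mice. Ier3 fell by 1.34 ± 0.29 on the log2 scale in Trem1-deficient against WT mice after CCl4 (edgeR adjusted p = 0.0103), and it rose by 1.28 ± 0.29 in WT CCl4 against WT oil mice (edgeR adjusted p = 0.00670). These values share the WT CCl4 mice. Within 1 index series the first was -1.275 and no longer called (edgeR adjusted p = 0.172). With the index series as a term in the fit neither was called, at -1.29 for Trem1-deficient against WT after CCl4 and 1.17 for WT CCl4 against WT oil (edgeR adjusted p = 0.0829 and 0.643).

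In WT CCl4 against WT oil, 3 of the 29 target genes rose and 1 fell, beside a share of 5.13% of all genes called. At an unadjusted p under 0.05 there were 10 of 29, beside 19.0% of all genes. Both counts ran above these shares, and this was not tested. Lcn2, an iron-sequestering lipocalin that is also on the neutrophil list, averaged 331 CPM in WT CCl4 and 4.07 CPM in WT oil mice (6.28 ± 0.90, edgeR adjusted p = 1.48e-04), although WT CCl4 mouse 5, at 6.82 CPM, lay inside the oil range. Plaur, the urokinase receptor gene, averaged 63.4 CPM in WT CCl4 and 5.18 CPM in WT oil mice (3.59 ± 0.94, edgeR adjusted p = 0.0188). The summed neutrophil markers, 4 of 10 of which were called higher, took 1189 to 11797 CPM in WT CCl4 and 230 to 1592 CPM in WT oil libraries, and their part in these changes was not tested. Cd83, a surface protein of activated antigen-presenting cells, averaged 94.5 CPM in WT CCl4 and 325 CPM in WT oil mice (-1.78 ± 0.50, edgeR adjusted p = 0.0354). Plaur lost its call without oil mouse 4, oil mouse 5 or WT CCl4 mouse 2 (edgeR adjusted p = 0.0654 to 0.0657), and Cd83 lost it without oil mouse 1, 2 or 3 or WT CCl4 mouse 2, 3, 4 or 5 (edgeR adjusted p = 0.0502 to 0.0991). Both also lost it without the 3 libraries of fewest genes, WT CCl4 mice 2 and 5 and oil mouse 2, which were chosen after seeing the data (edgeR adjusted p = 0.0828 for Plaur and 0.229 for Cd83), and Cd83 with limma (adjusted p = 0.119). With the index series as a term, Lcn2 kept its call and Plaur and Cd83 did not (edgeR adjusted p = 0.0444, 0.672 and 0.225). In Trem1-deficient CCl4 against WT oil, Lcn2 rose (68.4 CPM in Trem1-deficient and 4.07 CPM in oil mice, 4.01 ± 0.83, edgeR adjusted p = 0.0444), a call lost without Trem1-deficient mouse 1, 3, 4 or 5 or oil mouse 1, 2, 4 or 5 (edgeR adjusted p = 0.0727 to 0.215) and within 1 index series (3.80, edgeR adjusted p = 0.271). It was also lost with the index series as a term (edgeR adjusted p = 0.141) and with limma (adjusted p = 0.0957).

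**Figure D3:**
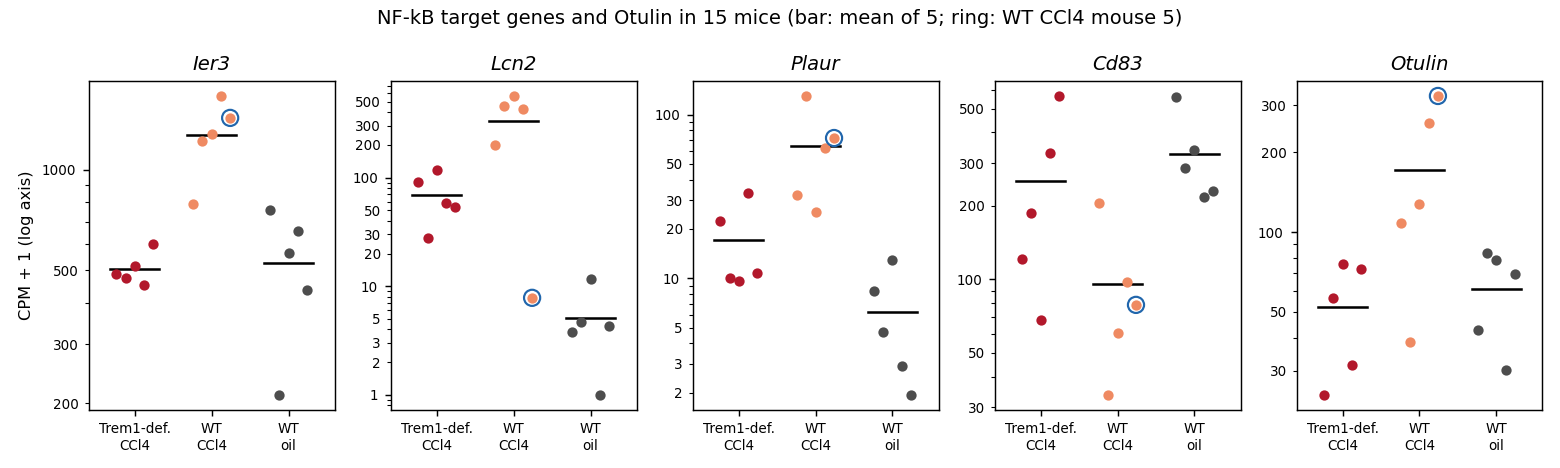
CPM plus 1 (vertical log axes) of the NF-kB targets Ier3, Lcn2, Plaur and Cd83 and of Otulin in Trem1-deficient CCl4, WT CCl4 and WT oil mice; points are mice, bars the mean of 5, and the ring marks WT CCl4 mouse 5. Ier3 sits at 449.7 to 596 CPM in the Trem1-deficient and 787 to 1662 CPM in the WT CCl4 mice, without overlap.

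Across the 15 mice the NF-kB genes varied together in only some pairs. Of 36 pairs among the 9 tested genes, 23 had a Pearson correlation of log2 CPM above 0, with a median of 0.18, and 5 passed a permutation test (100000 permutations, adjusted over 36 pairs) by Pearson's r and 0 by Spearman's rho. Nfkb2 and Rel had r = 0.84 (permutation p = 1.10e-04, adjusted p = 0.00396) and rho = 0.64 (permutation p = 0.0111, adjusted p = 0.133). Leaving out WT CCl4 mice 4 and 5, the farthest in Nfkb2, left r = 0.79. Nfkbia and Nfkbiz had r = 0.74 (permutation p = 0.00140, adjusted p = 0.0168) and rho = 0.74 (permutation p = 0.00206, adjusted p = 0.0742), with r = 0.74 after the group means were removed and r = 0.51 without Trem1-deficient mice 3 and 4. Trem1-deficient mouse 3 was the lowest in both genes. Nfkb2 and Tnip1 had r = 0.80 (permutation p = 2.80e-04, adjusted p = 0.00504) and rho = 0.65 (permutation p = 0.0108, adjusted p = 0.133), and r = 0.49 without WT CCl4 mice 4 and 5.

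The relation of Tnip1 to Bcl3 rested on single samples. It had r = 0.71 (permutation p = 0.0169, adjusted p = 0.0972) and rho = 0.18 (permutation p = 0.524, adjusted p = 0.905), and r = -0.0085 without WT CCl4 mouse 5 and Trem1-deficient mouse 1. Without WT CCl4 mouse 5 alone, 7 of the 36 pairs had r above 0.5, against 11 with it. All these values share the libraries' depth and scaling. The permutations moved mice across groups and index series, so their p-values do not separate group differences from variation within groups. After the group means were removed, Nfkb2 had r = 0.83 with Rel and 0.77 with Tnip1.

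**Figure D4:**
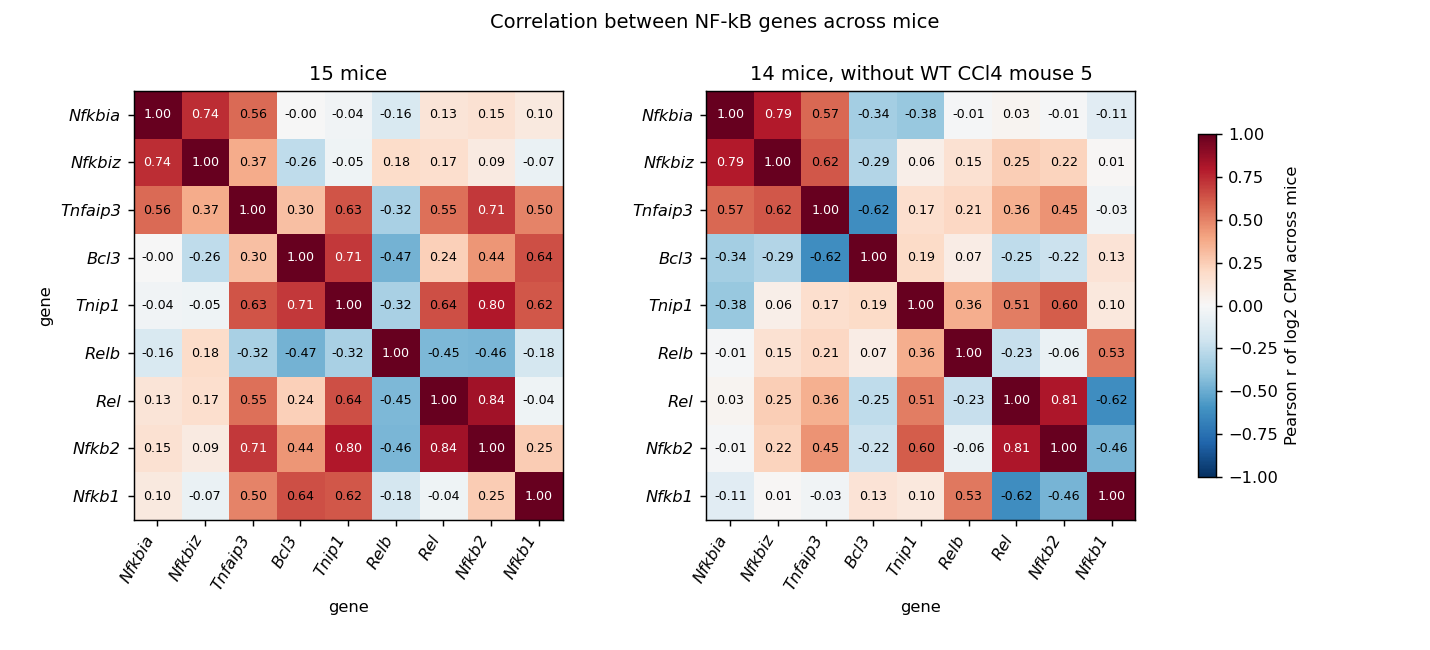
Pearson's r of log2 CPM between the 9 tested NF-kB genes across 15 mice (left) and across 14 mice without WT CCl4 mouse 5 (right), on a colour scale from -1 (blue) to 1 (red). Nfkbia with Nfkbiz and Nfkb2 with Rel stay high in both panels (0.74 and 0.79, and 0.84 and 0.81), whereas Tnip1 with Bcl3 is 0.71 on the left and 0.19 on the right.

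Among 7801 other genes that averaged 10 CPM or more, those with the pattern most like the 3 most abundant NF-kB genes were named by their Pearson correlation over the 15 mice. For Nfkbia these were Ifrd1 (r = 0.84), a transcriptional co-regulator gene, Proz (r = 0.83), which encodes protein Z of coagulation, and Mcl1 (r = 0.82), a survival gene of the Bcl2 family. Among the genes closest to Nfkbiz were Ccdc50 (r = 0.81) and Tiparp (r = 0.77). Tnfaip3 was closest to Gmip (r = 0.90), Slc17a5 (r = 0.86) and Icam1 (r = 0.86), and Icam1, an adhesion molecule gene, is itself on the list of NF-kB targets. Without WT CCl4 mouse 5 these 3 had r = 0.79, 0.79 and 0.71 with Tnfaip3. All the similar genes were picked as the highest of all and so carry no test. Proz averaged 5.41 CPM in Trem1-deficient, 12.8 CPM in WT CCl4 and 14.1 CPM in WT oil mice, near the limit of 0.988 to 4.09 CPM that a count of 0 allows.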

How the data were processed

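The authors deposited 1 table of raw counts, genes by mice; the labels list 60 entries, 4 lanes for each of 15 mice, and the mouse was the replicate. Libraries were made with the Lexogen QuantSeq 3' kit per the labels' protocols, and the submitters' processing notes list Trimmomatic, STAR 2.5.1a, Partek 6.6 and build mm10 without saying what each did. Neither annotation nor strand setting is given in the sources used here. The 4 tally lines were left out; genes took 12.6 to 28.8% of all reads. No molecular identifiers are mentioned, so limits cover counting error only.

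Counts were tested in R 4.3.3 with edgeR 4.0.16 (TMM, filterByExpr by group, robust quasi-likelihood F-test, 1 fit of 3 groups, adjusted p under 0.05 over 9001 genes); code was tested on simulated counts. Alternatives used other scalings, no filter, DESeq2 1.42.0, limma 3.58.1 (voom with quality weights), 2 groups alone, the replicate number as a block, the index series, and each mouse left out. Traf1 was compared by exact permutation of log2(CPM + 1), and correlations use log2 CPM with a prior count of 2. Libraries of a group always differed by more than counting error (lowest chi-square divided by its degrees of freedom 10.2).

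All 10 genes are described; of the 2 NF-kB lists, up to 4 called genes with the smallest p are named per comparison, or 2 where none was called, and 3 genes of most similar pattern for each of the 3 most abundant members; 1 of these similar genes is not reported here. Members and lists were chosen with earlier results of these data known. Sequences are from RefSeq (GRCm38.p6) and positions from GENCODE M21 on GRCm38.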

Additional observations from a re-analysis of the deposited data

Results flagged for a closer look

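Relb in WT CCl4 mouse 5 stood apart from the other mice of its group at 263 CPM (263.129), with the nearest at 82.9 CPM, a gap of 0.726 of the group's range against a limit of 0.71 for 5 samples. It was the single value so marked in 54 groups of 5 (18 genes in 3 groups), where chance marks about 1 in 20 groups. That library had the fewest counts (812320) and the fewest genes detected (7926) of all 15, and its Relb value rests on 193 counts. Its dendritic cell markers summed to 1109 CPM of the library total, within the range of 468 to 1122 CPM of the WT CCl4 group. Its B cell and plasma cell markers summed to 272 CPM, the highest of all 15 libraries, against 14.2 to 75.1 CPM in the other WT CCl4 mice. The part of either list in the Relb value was not tested.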

How the results depend on the processing

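Over 558 values of 27 fold changes of the 9 tested NF-kB genes, from all alternatives run, 0 passed the threshold and 55 changed sign, 25 of them with 1 mouse left out. Depth limits what can be detected at 0.988 to 4.09 CPM (3 counts), and its part in the width of the intervals was not tested.

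Genes called in Trem1-deficient against WT mice after CCl4 numbered 310 with library totals alone, 563 with no filter, 616 with DESeq2, 431 with limma, 77 with the index series as a term, 57 within 1 index series and 383 without the 3 libraries of fewest genes (chosen after seeing the data). In WT CCl4 against WT oil they numbered 813 with no filter, 1010 with DESeq2, 722 with limma and 37 with the series as a term, a fit that rests there on the Trem1-deficient mice alone. In Trem1-deficient CCl4 against WT oil they numbered 73 with no filter, 74 with DESeq2, 217 with limma, 11 with the series term and 46 without the 3 libraries. With 1 mouse left out they ranged over 88 to 508, 302 to 759 and 12 to 29 in these comparisons. Of the 29 target genes, DESeq2 called 5 and limma 3 in Trem1-deficient against WT mice after CCl4, where edgeR called 1, and DESeq2 called 8 in WT CCl4 against WT oil, where edgeR called 4. The causes were not tested. A fit within 1 index series was not run for WT CCl4 against WT oil, where each series holds 1 group.

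Signs turned as follows in Trem1-deficient against WT mice after CCl4. Library totals alone, which move the median of all genes by 0.29 here and by -0.20 in WT CCl4 against WT oil, gave 0.15 for Nfkbia and 0.20 for Tnfaip3. The series term gave 0.11 for Nfkbia, 0.022 for Tnfaip3 and -0.066 for Bcl3, and 1 series alone gave 0.12, 0.038 and -0.050 for them. Nfkbiz was -0.0742 with RLE scaling, -0.0742 with DESeq2, -0.089 with limma and -0.0903 with the replicate block. Limma gave -0.29 for Rel and 0.40 for Relb. Without the 3 libraries, Rel was -0.25, Relb 0.095 and Bcl3 -0.19. With 1 mouse left out, Nfkbia ranged from -0.29 to 0.030, Nfkbiz from -0.21 to 0.24, Rel from -0.38 to 1.10, Relb from -1.12 to 0.020, Tnfaip3 from -0.38 to 0.17 and Bcl3 from -0.027 to 0.46.

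In WT CCl4 against WT oil, library totals gave -0.16 for Nfkbia, the series term gave -0.58 for Nfkbia, 0.25 for Nfkb2 and 0.58 for Tnip1, and Relb was -0.026 without the 3 libraries. With 1 mouse left out, Nfkbia ranged from -0.038 to 0.084, Nfkb1 from -0.47 to 0.023 and Relb from -0.25 to 0.92. In Trem1-deficient CCl4 against WT oil, limma gave 0.0028 for Nfkb2 and 0.53 for Relb. The series term gave 0.32 for Nfkb2 and 0.20 for Relb, 1 series alone 0.34 for Nfkb2 and 0.22 for Relb, and Relb was 0.069 without the 3 libraries. With 1 mouse left out, Nfkbia ranged from -0.30 to 0.053, Nfkbiz from -0.57 to 0.015, Nfkb2 from -0.50 to 0.024, Relb from -0.45 to 0.058 and Tnip1 from -0.075 to 0.53.

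Mouse numbers shared by the groups did not pair the mice (correlations of same-numbered mice from -0.059 to 0.039, 0 of 15 above 0.1). With the number as a replicate block, 158, 365 and 21 genes were called in the comparisons in the order above, 0 of them among the 10 genes, Nfkb1 in Trem1-deficient CCl4 against WT oil was -0.0028, and Plaur lost its call (edgeR adjusted p = 0.0644).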
